A study of Mus musculus with 2 samples.

Results

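The globin genes and the erythroid enzyme that starts heme synthesis were followed in single cells of the embryonic mouse forebrain. The members were taken by symbol from the features: Hbb-bs, Hbb-bt, Hbb-bh1, Hbb-y, Hba-a1, Hba-a2, Hba-x and Alas2, 8 of 32285 rows. Cells with at least 1 Alas2 UMI (unique molecular identifier, 1 per captured RNA molecule) were set apart as the erythroid class, 2257 of 27182 called cells, split as 1215 (WT replicate 1) and 1042 (WT replicate 6). Most of these cells did not carry erythroid RNA, so they are called cells with Alas2 here, and the name globin-rich is kept for cells in which the globins made up at least 10% of the UMIs.

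The dorsal telencephalon, labelled as brain hemispheres and forming the later cerebral cortex, was dissociated from wild-type (WT) C57BL/6J embryos at embryonic day 16.5 and sequenced as 3′-end droplet libraries. The series concerns a conditional deletion of Dot1l by Emx1-Cre, a Cre driver of the cortical excitatory lineage. Only its 2 WT libraries, which the labels tell apart by number, were used, and no knockout library was analysed here. Thus the data hold 1 group, and every comparison lies between classes of cells of the same libraries.

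Hemoglobin is a tetramer of alpha-type and beta-type globin chains, each holding heme. In the mouse, the first wave of red cells from the yolk sac (primitive erythroid cells) makes the embryonic beta-type chains Hbb-y and Hbb-bh1 and the embryonic alpha-type chain Hba-x. Definitive red cells from the fetal liver make the later chains Hbb-bs and Hbb-bt from the beta cluster and Hba-a1 and Hba-a2 from the alpha cluster. Alas2 is the erythroid form of 5-aminolevulinate synthase, the first and rate-limiting enzyme of heme synthesis, whereas Alas1 serves the other tissues. Brain cells make little or no globin, and red cells reach such a preparation inside the vessels.

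The beta-type genes lie on chromosome 7 and the alpha-type genes on chromosome 11, while Alas2 lies on the X chromosome (RefSeq, GRCm38.p6). The beta cluster holds Hbb-bt at chr7:103812524-103813923, Hbb-bs at chr7:103826523-103827928, Hbb-bh1 at chr7:103841638-103843162 and Hbb-y at chr7:103851754-103853207. The alpha cluster holds Hba-x at chr11:32276600-32278116, Hba-a1 at chr11:32283672-32284486 and Hba-a2 at chr11:32296492-32297310. Alas2 spans chrX:150547417-150570622 and lies inside the span of Apex2, a DNA repair gene on the opposite strand, at chrX:150426974-150588206.

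The 100 bases before the start of each gene are shown because the members fall into a later and an embryonic set that are measured together below, and RefSeq (GRCm38.p6) gave them for 7 of the 8 members, Hbb-bh1 being the other. They come from the minus strand at chr7:103827929-103828028 (Hbb-bs), chr7:103813924-103814023 (Hbb-bt) and chr7:103853208-103853307 (Hbb-y), and from the plus strand at chr11:32283572-32283671 (Hba-a1), chr11:32296392-32296491 (Hba-a2), chr11:32276500-32276599 (Hba-x) and chrX:150547317-150547416 (Alas2). Capitals mark the letters of 4 motifs known from globin promoters, searched on both strands: the erythroid Klf factor box CACCC, whose other strand reads GGGTG, the CCAAT box, whose other strand reads ATTGG, the GATA factor motif, read as TATC on the other strand, and the TATA box.
Hbb-bs: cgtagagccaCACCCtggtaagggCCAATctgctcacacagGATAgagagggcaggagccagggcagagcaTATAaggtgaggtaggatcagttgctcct
Hbb-bt: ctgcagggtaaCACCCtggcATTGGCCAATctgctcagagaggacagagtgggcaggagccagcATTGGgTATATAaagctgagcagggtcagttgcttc
Hba-a1: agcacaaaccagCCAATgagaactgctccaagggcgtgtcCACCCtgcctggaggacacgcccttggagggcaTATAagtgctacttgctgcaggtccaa
Hba-a2: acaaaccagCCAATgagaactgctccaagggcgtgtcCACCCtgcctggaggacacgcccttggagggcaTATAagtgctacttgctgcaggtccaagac
Hbb-y: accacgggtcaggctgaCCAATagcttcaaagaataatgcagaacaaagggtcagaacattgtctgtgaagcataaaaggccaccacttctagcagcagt
Hba-x: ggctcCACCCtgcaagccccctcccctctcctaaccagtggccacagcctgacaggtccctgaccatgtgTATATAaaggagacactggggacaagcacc
Alas2: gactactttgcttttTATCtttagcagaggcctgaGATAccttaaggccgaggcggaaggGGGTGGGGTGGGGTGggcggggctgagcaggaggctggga

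All 4 later globin promoters held CACCC together with CCAAT and TATA, as did 216 of 32851 promoters in the table (0.658%). Taken singly, these letters are common in windows of this length, with CACCC in 27.2%, GATA in 25.04%, CCAAT in 18.9% and TATA in 15.2% of promoters. Hbb-y held CCAAT alone, starting at base -83 from the gene start. Hba-x held CACCC at base -95 and, like Hbb-bt, a TATATA run that holds overlapping TATA matches, while Hbb-bs was the only globin with GATA, at base -59. Alas2 held GGGTG 3 times in direct succession from base -40, GATA at base -65 and TATC at base -85. A match is a description of letters and no match says nothing of the factor. Hba-a1 and Hba-a2 carried nearly the same window, shifted by a few bases.

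The libraries held 14136 and 13046 cells with 74930397 and 68964234 UMIs, a median of 2967 and 3381.5 UMIs per cell and no cell under 500. They shared 59 barcodes, and over 26962 genes their totals differed beyond counting noise (chi-square of 26.9 per degree of freedom), so that neither is a copy of the other. They are 2 samples by their labels. Globins made up 1.38% (WT replicate 1) and 2.05% (WT replicate 6) of all UMIs, and only 5 and 8 cells had none. All intervals below are exact and cover counting error only, and where 2 libraries are given, replicate 1 comes first. In 3′-end data UMIs are not scaled by transcript length, so ratios between genes are ratios of UMIs.

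Over all cells, the later globins stood far above the embryonic ones. Hbb-bs reached 6681 and 10296 UMIs per 1000000 (CPM), Hba-a1 2890 and 3967, Hba-a2 2179 and 3065, and Hbb-bt 2011 and 3191, all higher in WT replicate 6. Of the embryonic genes, Hba-x reached 1.001 and 4.70 CPM, Hbb-y 0.707 and 6.10 CPM, and Hbb-bh1 0.133 and 0.232 CPM. Alas2 stood at 29.3 and 29.5 CPM, from 2197 and 2036 UMIs, and did not share the difference between the libraries. The order Hbb-bs, Hba-a1 was the same in both libraries, whereas Hba-a2 was above Hbb-bt in replicate 1 and below it in replicate 6. With 1 library on each side, a difference between the libraries was not tested. The later genes of a pair are near copies: 72.1% of the 90-base stretches of the Hba-a1 transcript also occurred in Hba-a2, and 59.3% of those of Hbb-bs in Hbb-bt, so the split within a pair is uncertain. Between embryonic and later genes no such stretch was shared.

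Cells fell into a large globin-poor and a small globin-rich population. Globin-rich cells numbered 339 in the first library and 394 in the second, with a median of 66.4% and 74.0% of their UMIs from globins and a median of 383 and 333 detected genes. The lowest globin-rich cells held 10.9% and 10.7% globin UMIs and the highest cells below the limit 9.39% and 9.87%, with 28 and 48 cells between 5% and 20%. Alas2 was found in 245 of the 339 and 282 of the 394 globin-rich cells, and the share with Alas2 reached 97.3% and 93.0% where globins exceeded 80% of the UMIs. Of the globin-poor cells, 970 and 760 had Alas2, that is, more cells than in the globin-rich population.

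**Figure D1:**
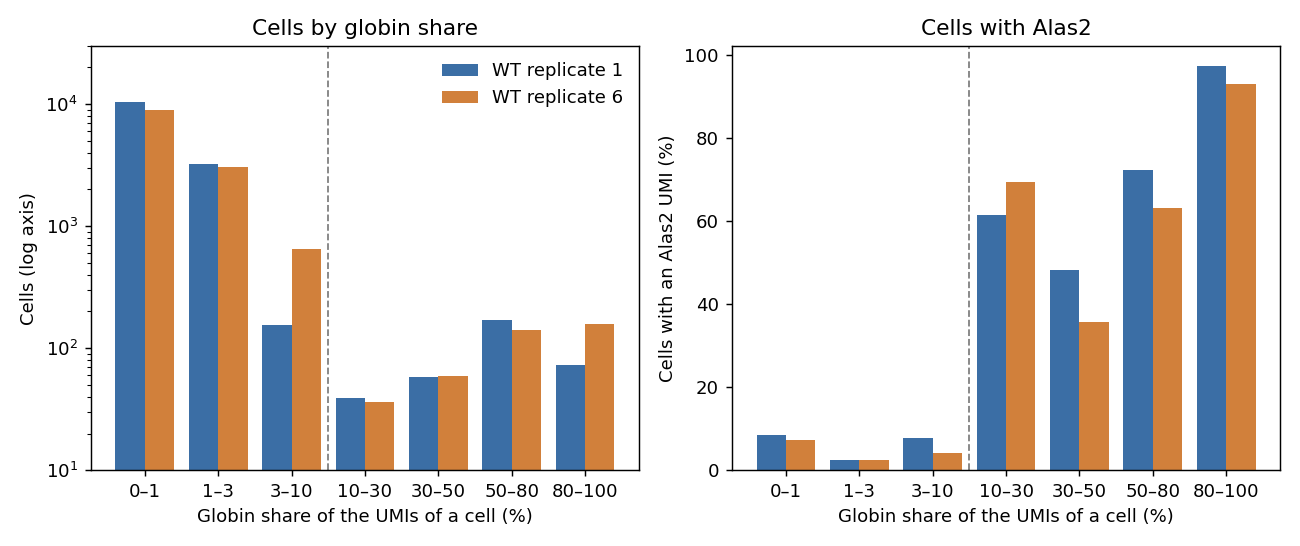
Cells by the globin share of their UMIs (left, number of cells on a log axis) and the percent of them with at least 1 Alas2 UMI (right) in both WT libraries. The dashed line marks the 10% limit of globin-rich cells. In the bin from 0 to 1% globin, 8.42% and 7.39% of the cells had Alas2, against 97.3% and 93.0% in the bin above 80%.

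The globin-poor cells with Alas2 did not carry the other erythroid RNAs. Of 7 erythroid markers apart from the members (among them Slc4a1, Hemgn, Klf1, Gata1 and Rhag), 7 were detected in globin-rich cells with Alas2, at a summed 372 and 342 CPM. In globin-poor cells with Alas2, 3 of the 7 were detected in each library, at a summed 0.704 and 2.88 CPM, near the 2.30 and 2.53 CPM of globin-poor cells without Alas2. In the globin-poor cells with Alas2, 853 of 970 and 694 of 760 had a single Alas2 UMI. In globin-rich cells without Alas2 the markers summed to 27.3 and 301 CPM and were found in 4.26% and 4.46% of the cells. Of 5 platelet and 5 blood leukocyte markers, 3 and 0 were detected in globin-rich cells with Alas2 of replicate 1, summing to 6.80 and 0 CPM, and 4 and 5 in those of replicate 6, summing to 94.6 and 15.1 CPM. Returning to the globin-poor cells with Alas2, at least 3 excitatory neuron markers (of a list with Neurod6, Neurod2, Tbr1, Slc17a7, Bhlhe22 and Fezf2) were found in 50.1% and 50.3% of them, and 714 and 587 had at least 3 markers of a neural list. Of the globin-poor cells without Alas2, 29.98% and 32.33% had at least 3 excitatory neuron markers. Their median depth was lower, at 2882 and 3247 against 4425.5 and 6313.5 UMIs, and the shares were not compared at like depth. In the globin-poor cells with Alas2, the medians of 13 and 15 globin UMIs per cell equalled those of the globin-poor cells without Alas2. The means were higher, at 19.7 and 42.0 against 13.5 and 16.8. Conversely, 40 and 42 globin-rich cells carried at least 3 markers of a neural list, and no doublets were removed.

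The question which hemoglobin the red cells of this stage make was addressed first. In cells with Alas2, embryonic beta-type chains gave 6 of 481671 beta-type UMIs in WT replicate 1 (0.00125%, 95% interval 0.000457% to 0.00271%). In WT replicate 6 they gave 16 of 718657 (0.00223%, 0.00127% to 0.00362%). Hba-x gave 5 of 289254 alpha-type UMIs in replicate 1 (0.00173%, 0.000561% to 0.00403%) and 0 of 380619 in replicate 6, which allows a share of up to 0.000788%. The counting intervals of the beta-type share overlapped between the libraries, and nearly all globin RNA of these cells was of the later genes. Most of the few embryonic beta-type UMIs were Hbb-bh1, with 4 and 10 UMIs against 2 and 6 of Hbb-y, but 4 and 9 of them came from a single cell in each library. Without these cells, Hbb-bh1 gave 0 and 1 UMIs and Hbb-y 2 and 5.

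Most of the cells with most embryonic globin had no Alas2 UMI, which many shallow globin-rich cells also lacked. At least 4 embryonic globin UMIs were present in 4 cells of each library, and these cells held 76.1% of 138 (replicate 1) and 96.1% of 761 (replicate 6) embryonic UMIs. Of the 8 cells, 6 had no Alas2 UMI, and these 6 held 19 to 568 globin UMIs. Globin-rich cells held 1.31 and 1.01 Alas2 UMIs per 1000 globin UMIs. Among the other globin-rich cells of 500 up to 1500 UMIs, 45 and 60 had no Alas2 UMI. A further 29 and 23 had 1 or 2, and 12 and 8 had 3 or more. Whether the lack of Alas2 went beyond this depth was not tested. The 8 cells were singled out after their values were seen. The other 33 and 30 embryonic UMIs were spread over 32 and 30 cells, at 0.441 and 0.435 CPM. The level over all cells, and its difference between the libraries, therefore rests largely on these few cells.

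Hbb-y and Hba-x were both found in number in 3 of the 8 cells, all with 0 Alas2 UMIs. In WT replicate 1, a cell of 821 UMIs held 39 Hbb-y and 26 Hba-x UMIs, and Hbb-y made up 79.6% of its beta-type UMIs. In WT replicate 6, a cell of 1168 UMIs held 276 Hbb-y and 71 Hba-x UMIs with 95.8% embryonic beta-type UMIs, and a cell of 940 UMIs held 128 Hbb-y, 2 Hbb-bh1 and 195 Hba-x UMIs. This last cell was embryonic on both sides, with 92.2% of the beta-type and 87.1% of the alpha-type UMIs. In the first 2 cells, by contrast, Hba-x gave only 24.5% and 25.4% of the alpha-type UMIs, and the others were Hba-a1 and Hba-a2. Which wave of red cells these 2 cells came from was not tested. None of the 3 cells had one of the erythroid markers, and they had 317 to 372 detected genes.

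The other 5 cells were of different kinds. Hba-x was alone in a cell of 563 UMIs in replicate 6 (48 UMIs, with 1 of Hbb-y) and in a cell of replicate 1 with 2207 UMIs, 29 of Hba-x, that met the excitatory neuron markers. A cell with endothelial markers in replicate 1 held 7 Hbb-y UMIs. Hbb-bh1 was alone, or nearly so, in 1 cell per library with definitive globin: 4 UMIs beside 1343 of Hbb-bs and 10 of Alas2 in replicate 1, and 9 UMIs, with 1 of Hbb-y, beside 634 of Hbb-bs and 2 of Alas2 in replicate 6. In the 3 cells that held Hbb-y and Hba-x in number, Hbb-bh1 stood at 0, 0 and 2 UMIs.

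**Figure D2:**
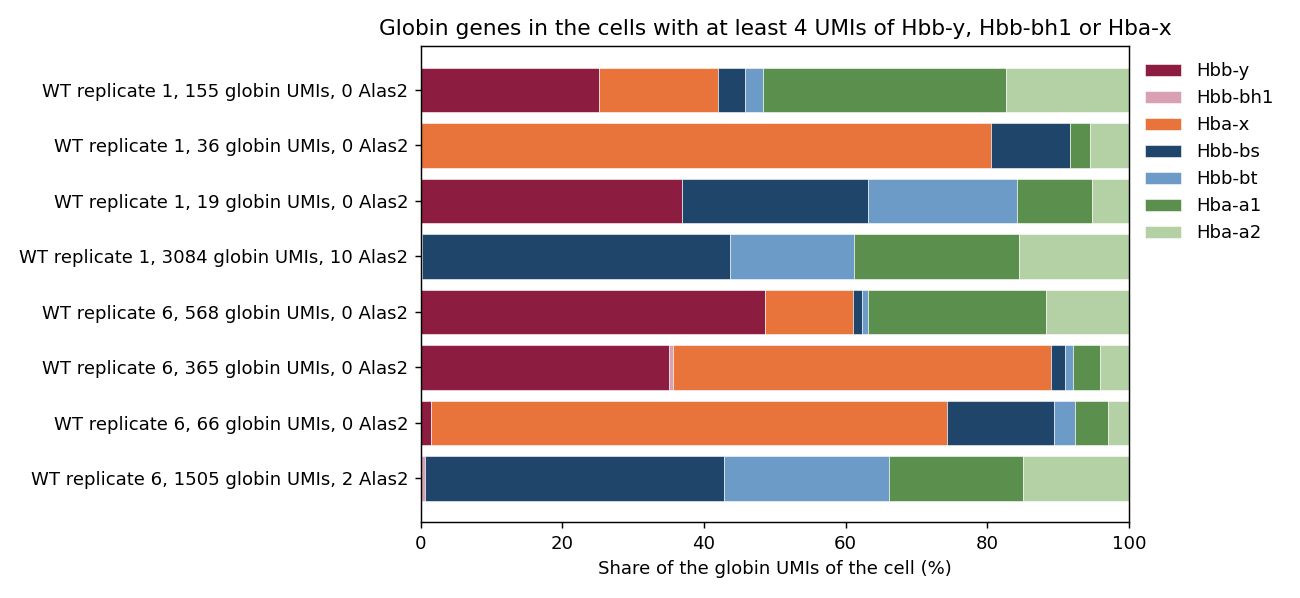
Share of each globin gene in the globin UMIs (in percent) of the 8 cells with at least 4 embryonic globin UMIs, 1 bar per cell, with the library, the globin UMIs and the Alas2 UMIs of the cell at the left. Hbb-y (dark red) and Hba-x (orange) together filled the larger part of 4 of the 6 bars without Alas2, while the 2 cells with 10 and 2 Alas2 UMIs held almost only later globins.

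Within the later beta-type pair, the share of Hbb-bt differed with Alas2. In globin-rich cells with 3 or more Alas2 UMIs, Hbb-bt made up 25.9% and 26.7% of the Hbb-bs and Hbb-bt UMIs. With 1 or 2 Alas2 UMIs it made up 19.7% and 18.7%, and with none 12.8% and 14.0%. Both libraries showed this order. The counting intervals of the 3 classes did not overlap within a library, but they leave out the spread between cells. In WT replicate 1 the 25th to 75th percentile of the cells was 6.28% to 18.5% with no Alas2 UMI. It was 10.2% to 24.6% with 1 or 2 and 20.8% to 28.3% with 3 or more, so neighbouring classes overlapped. The Hba-a1 to Hba-a2 ratio stayed between 1.29 and 1.34 in the same classes. The alpha-type to beta-type ratio was 0.601 and 0.532 over the globin-rich cells.

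Because cells with more Alas2 UMIs were also deeper, the Hbb-bt share was compared at like depth. In cells of 1500 up to 4000 UMIs it was 13.7%, 18.8% and 21.7% with 0, 1 or 2, and 3 or more Alas2 UMIs in WT replicate 1. In WT replicate 6 it was 13.8%, 17.3% and 23.9%. The same order was found in cells of 500 up to 1500 UMIs (11.7%, 14.2% and 21.2%, and 9.50%, 14.5% and 30.8%) and in cells of at least 4000 UMIs (10.2%, 22.6% and 27.0%, and 19.4%, 20.6% and 27.2%). The deepest cells without Alas2 numbered only 6 and 9. Some cells had little Hbb-bt at all: 64 of 337 and 94 of 390 globin-rich cells with under 4 embryonic globin UMIs were below 10%, and 42.2% and 37.2% of them had Alas2, against 90.5% and 90.7% of the cells at 20% or more.

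**Figure D3:**
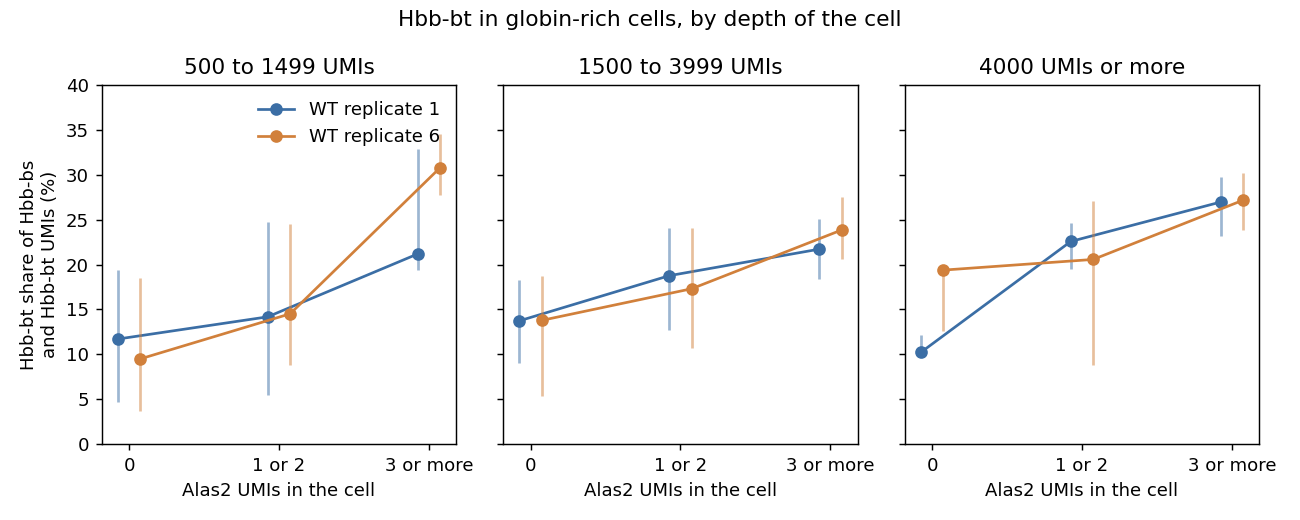
Hbb-bt share of the Hbb-bs and Hbb-bt UMIs (percent) in globin-rich cells with 0, 1 or 2, and 3 or more Alas2 UMIs, in 3 ranges of depth. Points are shares of the summed UMIs and vertical lines run from the 25th to the 75th percentile of the cells. The share was lowest without Alas2 and highest with 3 or more Alas2 UMIs in all 3 ranges and both libraries.

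Across these cells the Hbb-bt share correlated with Alas2 per globin UMI (Spearman's rho 0.38 and 0.43 in 337 and 390 cells) and about as much with depth (0.42 and 0.43). These are descriptions, since the cells share a library and their depth. Other properties moved as well: with 0, 1 or 2, and 3 or more Alas2 UMIs the median mitochondrial share fell from 3.15% through 2.29% to 1.41% in replicate 1 and from 3.62% through 2.20% to 1.26% in replicate 6. The median globin share rose from 50.9% to 77.3% and from 55.0% to 83.6%. Their part in the Hbb-bt pattern was not tested.

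The classes with 3 or more and with no Alas2 UMI were then compared over all genes in the summed UMIs (edgeR quasi-likelihood test, Benjamini-Hochberg adjusted). Cells with 4 or more embryonic globin UMIs were left out of the class without Alas2 alone, which leaves 93 and 109 cells against 153 and 169. Of 3789 genes tested, 2 were called higher in cells with Alas2 (0.0528%), none lower, and no globin was among them. Hbb-bt stood at 104901 and 129056 CPM against 38652 and 48282 CPM, a log2 difference of 2.14 ± 0.37 (SE, n = 2). Hbb-bs, Hba-a1 and Hba-a2 differed by 0.93, 1.15 and 1.16. Without TMM, the median of all genes moved from -0.02 to -0.70, with 12 genes called higher and 102 lower. The differences were then 0.18, 0.42 and 0.42 for these 3 genes and 1.39 for Hbb-bt. Bpgm, the red cell enzyme that makes 2,3-bisphosphoglycerate, was among the genes called (2.68 ± 0.31, edgeR adjusted p = 0.0288). The globin sum had chosen the cells of both classes, so no p-value is given for the globins.

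In the comparison of all cells with Alas2 against all cells without, the later globins were higher. Hbb-bt stood at 14269.7 and 22934 CPM against 489 and 685 CPM, which is a log2 difference of 5.15 ± 0.32. The differences were 4.94 ± 0.23 for Hba-a1, 4.94 ± 0.24 for Hba-a2 and 4.72 ± 0.30 for Hbb-bs (edgeR adjusted p of 0.00150 to 0.00331 for the 4 genes, SE, n = 2 libraries). Thus 4 of the 7 globins were called higher, against 0.14% of the 18535 genes tested. In such sums, fewer cells of a kind and less RNA per cell cannot be told apart, and 245 of the 1215 and 282 of the 1042 cells with Alas2 were globin-rich. None of the 3 embryonic globins was called. All passed the filter on low counts, Hbb-bh1 through its level in cells with Alas2 alone, so no test is given for it. Without TMM, the median of all genes moved from -0.01 to -0.17 on the log2 scale. Alas2 chose the cells and had no test.

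The levels of the embryonic genes rested on few cells. Hbb-y stood at 0.242 and 0.772 CPM with Alas2 and at 0.765 and 6.78 CPM without (log2 difference -2.75, edgeR adjusted p = 0.576). Hba-x stood at 0.604 and 0 CPM against 1.05 and 5.29 CPM (-3.18, 0.513), and Hbb-bh1 at 0.483 and 1.29 CPM against 0.090 and 0.098 CPM. The same test with the library as a block, which is the paired form since each library gave both classes, gave adjusted p of 5.3e-05 for Hbb-y and 0.000562 for Hba-x. It called 3.54% of all genes higher and 3.87% lower. The values were then taken without the 8 cells described above, a setting added after seeing the data and given with no test. Hbb-y then stood at 0.242 and 0.644 CPM with Alas2 against 0.075 and 0.163 CPM without, so that its direction turned in both libraries. Hba-x stood at 0.605 and 0 CPM against 0.225 and 0.163 CPM, and Hbb-bh1 at 0 and 0.129 CPM against 0.090 and 0.065 CPM, and the libraries went opposite ways for both genes. In globin-rich cells with Alas2 against globin-poor cells without, the log2 difference of Hbb-y was 4.91. It rested on 1 and 3 UMIs against 12 and 10, at 0.850 and 1.97 against 0.181 and 0.164 CPM. No test is given for it, since globins chose the cells.

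Heme synthesis genes were compared next, in pathway order. In the comparison of all cells with Alas2 against all without, only Fech of 7 other enzymes was called, at 42.5 and 46.2 against 13.7 and 14.8 CPM (log2 difference 1.79 ± 0.10, edgeR adjusted p = 0.00271). Fech, ferrochelatase, inserts iron into protoporphyrin in the last step. The other enzymes differed by between -0.09 and 0.26. Given that most of these cells were globin-poor, the comparison was repeated, after these values were seen, between globin-rich cells with Alas2 (245 and 282 cells) and globin-poor cells without.

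In globin-rich cells some steps of the pathway were higher. Here 223 of 17980 genes were called higher (1.24%) and 32 lower, and 3 of the 7 enzymes were among those called higher, with a median log2 difference of 1.23 over the 7 against -0.15 over all genes. Because globins filled most of the UMIs of these cells, levels are given per 1000000 non-globin UMIs. Fech reached 606 and 618 against 13.6 and 14.6 (log2 difference 5.67 ± 0.14, edgeR adjusted p = 1.53e-07). Urod, which decarboxylates uroporphyrinogen, reached 139 and 125 against 16.4 and 17.3 (3.19 ± 0.15, 8.09e-06). Cpox, coproporphyrinogen oxidase, reached 44.8 and 39.6 against 8.01 and 9.07 (2.53 ± 0.28, 0.00186).

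Alad, the enzyme that follows aminolevulinate synthase, reached 40.1 and 44.0 against 23.8 and 25.1 and was not called (1.01 ± 0.21, edgeR adjusted p = 0.0707). Neither were Ppox, the step before Fech (1.23 ± 0.37, 0.258), Alas1 (0.74 ± 0.30, 0.439) and Uros (0.44 ± 0.45, 0.737). Alas1, the form of other tissues, stood at 18.9 and 26.4 against 15.7 and 16.3. Uros was below the globin-poor level in replicate 1 and above it in replicate 6. Fech, Urod and Cpox were also called with the library as a block and with scaling to non-globin UMIs.

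**Figure D4:**
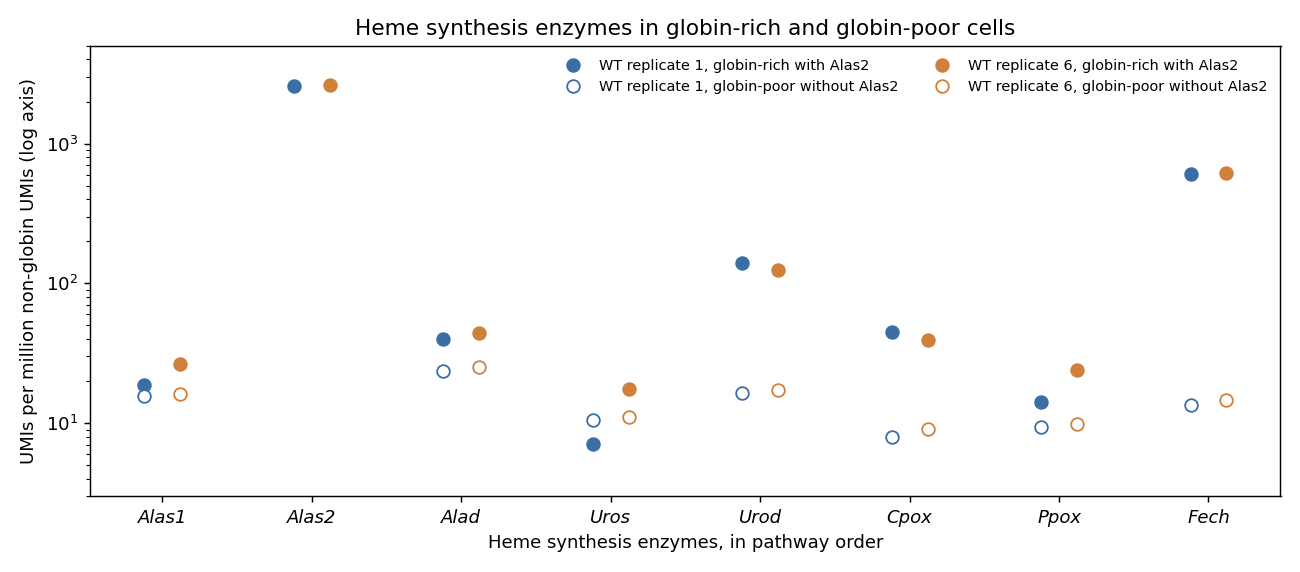
UMIs per 1000000 non-globin UMIs (log axis) of 8 heme synthesis enzymes in pathway order, in globin-rich cells with Alas2 (filled) and globin-poor cells without (open), 1 point per library. Alas2 has no open point because it was 0 in those cells by choice. Fech, Urod and Cpox lay well apart in both libraries, at 606 and 618 against 13.6 and 14.6 for Fech, while Alas1 and Uros lay close. Alad and Ppox differed by less than Cpox and were not called.

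This comparison depends on the scale. Without TMM, that is, on the CPM scale, the median of all genes was -1.99 in place of -0.15 on the log2 scale, and 117 genes were called higher and 12932 lower. On that scale Fech (3.84), Urod (1.36) and Cpox (0.69) were still called higher, and Alad (-0.83), Alas1 (-1.10) and Uros (-1.40) were called lower. The other log2 differences and calls given for globin-rich against globin-poor cells are from the fit with TMM, whereas the levels are scaled to non-globin UMIs. The levels and the differences can therefore disagree. With the fit scaled to non-globin UMIs, Alad differed by 0.78 in place of 1.01 and Apex2 by -0.41 in place of -0.18. The median of all genes was then -0.37. All changes named here are thus relative to the scale chosen.

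Of the 12 genes for heme and iron transport, 3 were called higher in globin-rich cells and none lower, with a median log2 difference of 0.05 against -0.15 over all genes. Slc25a37 (mitoferrin-1), which carries iron into the mitochondrion, reached 1200 and 1303 against 3.05 and 3.72 per 1000000 non-globin UMIs (8.76 ± 0.19, edgeR adjusted p = 1.26e-07). The ferritin chains Fth1 (2.51 ± 0.18) and Ftl1 (2.33 ± 0.18) were also called. Tfrc, the transferrin receptor through which erythroblasts take up iron, stood at 14.1 and 28.6 against 27.6 and 24.2 and was not called (-0.04 ± 0.34, edgeR adjusted p = 0.971). Of the 4 heme breakdown genes, Blvrb, a flavin and biliverdin reductase abundant in red cells, was called higher (5.78 ± 0.17). Hmox1, the inducible heme oxygenase, was at 2.36 and 0 against 5.25 and 3.37 and was not called (-1.70, edgeR adjusted p = 0.729).

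Many genes of the red cell membrane and cytosol were higher. Of 14 membrane and carrier genes, 9 were called higher and none lower, with a median of 4.92. Among the 9 were the anion exchanger Slc4a1 (10.5), the blood group protein Kel (9.20) and Rhag (6.08). These genes, and some others of the 9, passed the filter on low counts through globin-rich cells alone, so their calls do not count as tests. Rhag was also not called with the library as a block (edgeR adjusted p = 0.326). Of 12 soluble red cell genes, 10 were tested and 10 called higher (median 5.76), led by Ube2l6 (8.23 ± 0.15), Car2 (6.51 ± 0.16) and Hemgn (6.36 ± 0.94). Hemgn passed the filter through globin-rich cells alone, so its call does not count as a test. It was also not called with the library as a block (edgeR adjusted p = 0.104). Fech belongs to this list and to the heme enzymes. The minor alpha-type globins Hbq1a and Hbq1b stood at 18.9 to 59.0 per 1000000 non-globin UMIs in globin-rich cells and at 0.0754 to 0.166 in globin-poor cells. They passed the filter on low counts through globin-rich cells alone, so no test is given for them.

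Few regulators were called. Of 9 erythroid transcription factor and receptor genes, 7 were tested and 2 called higher, Nfe2 (5.06 ± 0.68) and Lmo2 (2.51 ± 0.28), of which Nfe2 was not called with the library as a block (edgeR adjusted p = 0.0647). Nfe2 also passed the filter on low counts through globin-rich cells alone. Klf1, an activator of the later beta-type genes, stood at 4.72 and 6.60 against 0.453 and 0.395 per 1000000 non-globin UMIs and was not called (3.96 ± 0.78, edgeR adjusted p = 0.056). None of the 10 regulators of globin switching was called in edgeR with all globin-rich cells with Alas2, with a median of -0.17 against -0.15 over all genes, although without TMM 1 was called higher and 8 lower. Bcl11a, a repressor of embryonic globin genes in red cells and also a factor of cortical neurons, stood at 347 and 482 against 522 and 550 (-0.15 ± 0.17, edgeR adjusted p = 0.746). Markers of neurons were carried along at this depth: the 7 excitatory neuron markers summed to 1035 and 1241 per 1000000 non-globin UMIs in globin-rich cells with Alas2, against 1634 and 1691 in globin-poor cells without. With the cells of 3 or more neural markers left out of the globin-rich class alone, 1 of the 10 regulators was called higher (Klf1, 5.06 ± 0.92, edgeR adjusted p = 0.0119) and 4 lower. Among these 4 was Bcl11a, with a log2 difference of -1.16. Since neural cells stayed in the globin-poor class, lower values of genes of neurons can follow from this choice, and no test is given for them. In that setting 4 of the 7 transcription factor and receptor genes were higher. It called 3.37% of all genes higher and 5.03% lower, with a median of -0.59 over all genes.

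In the comparison of all cells with Alas2 against all without, the same lists gave smaller counts, with 1 of 12 transport genes (Slc25a37, 4.36 ± 0.19), 1 of 4 breakdown genes (Blvrb, 1.77 ± 0.16) and 4 of 13 tested membrane genes (among them Slc4a1 and Epb41). Without its level in cells with Alas2, Slc4a1 would not have passed the filter on low counts. Of the soluble genes 5 of 10 were called, led by Ube2l6 (3.93 ± 0.15), and no regulator was. In all, 26 genes were called higher and 6 lower (26 and 15 without TMM), 16 of them members or on a list. Among the other 16, named after their values were seen, Tent5c, a poly(A) polymerase (5.36 ± 0.18), and Isg20 (4.45 ± 0.34) were higher. Ptgds, abundant in the meninges (-2.76 ± 0.19), Dlk1 (-1.51 ± 0.16) and Vtn, a mural marker (-1.22 ± 0.13), were lower. With the library as a block, 656 genes were called higher and 718 lower.

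The genes whose level was most like that of Alas2 across all cells were ranked by the lower Pearson r of the 2 libraries, on a log scale. Among the 10 highest apart from the members were Slc25a37 (0.41 in replicate 1 and 0.44 in replicate 6), Tent5c (0.37 and 0.42), Ube2l6 (0.33 and 0.36), Fech (0.23 and 0.24), Slc4a1 (0.22 and 0.25), Isg20 (0.21 and 0.22) and Bpgm (0.20 and 0.24). Of the members, the 4 later globins reached 0.29 to 0.30 and 0.33 to 0.34, while Hbb-y (0.01 and 0.01) and Hba-x (0.02 and -0.01) showed none. The cells, 14136 and 13046, share their libraries and their depth.

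The second question was how much globin RNA the cells without Alas2 hold. Nearly every cell had some, at a number that did not grow with the size of the cell. In globin-poor cells without Alas2 of 500 up to 1000 UMIs, the median was 12 and 15 globin UMIs, and in cells of 10000 up to 20000 UMIs it was 13 and 15. Between the 5th and 95th percentile the smallest cells held 6 to 20 and 8 to 24 globin UMIs. The globin share therefore fell with depth, from 178 and 230 per 10000 UMIs in the smallest cells to 10.1 and 13.0 in those of 10000 up to 20000 UMIs. In the 281 and 224 cells of at least 20000 UMIs, the medians were 12 and 14, but the 95th percentile was 25 in replicate 1 and 164 in replicate 6, and the mean in replicate 6 was 71.9.

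**Figure D5:**
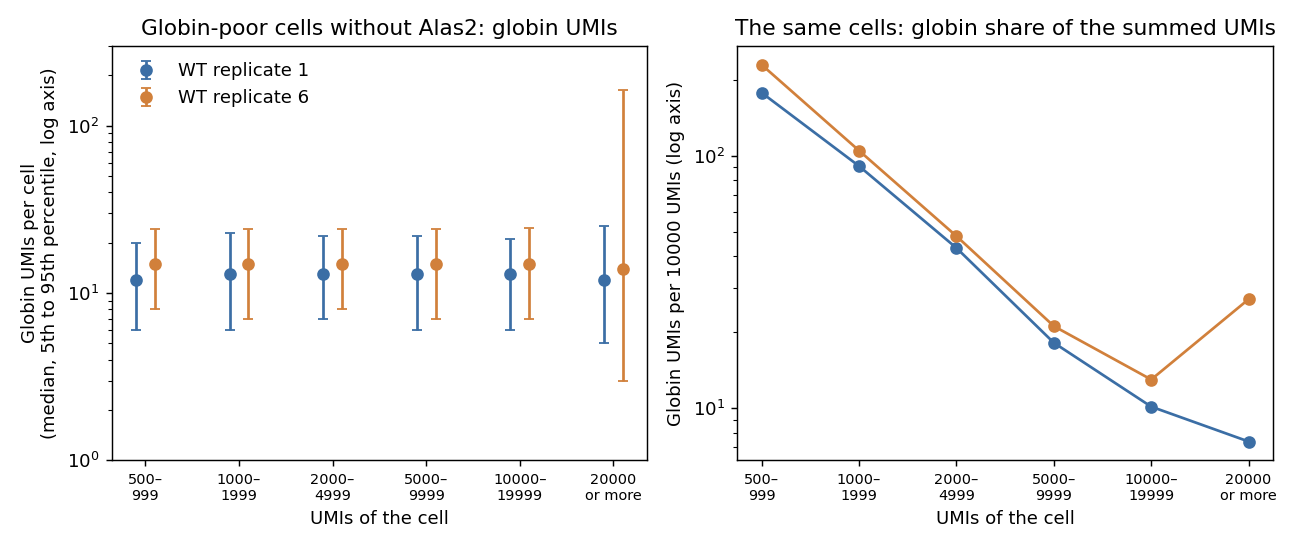
Globin UMIs per cell in globin-poor cells without Alas2, by the UMIs of the cell (left, median with the 5th to 95th percentile, log axis), and globin UMIs per 10000 summed UMIs (right, log axis). The medians stayed between 12 and 15 over the whole range of depth, and the share fell from 178 and 230 to 10.1 and 13.0 per 10000, before 27.0 in the deepest cells of replicate 6.

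Over all cells without Alas2 the mean was 20.1 and 26.4 globin UMIs, which the 94 and 112 globin-rich cells among them raised. In globin-poor cells without Alas2 it was 13.5 and 16.8. In the smallest of these the variance was 1.43 and 1.66 times the mean, against a ratio of 1 for a pure count. The median cell held 6 and 8 UMIs of Hbb-bs and 2 of Hbb-bt in this size range, with 2 or 3 of Hba-a1 and 2 of Hba-a2.

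The mixture in globin-poor cells resembled, but did not equal, that of the globin-rich cells. The Hbb-bs to Hbb-bt ratio was 3.48 and 3.34 in globin-poor cells without Alas2, between the 2.86 and 2.75 of globin-rich cells with 3 or more Alas2 UMIs and the 6.83 and 6.17 of those with none. It was close to the 3.28 and 3.20 of all globin-rich cells. The Hba-a1 to Hba-a2 ratio was 1.31 and 1.29 against 1.33 and 1.30. The alpha-type to beta-type ratio was lower in globin-poor cells, with 0.509 and 0.463 against 0.601 and 0.532.

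Cells were then set apart by marker genes and are called by the list they met, for example excitatory neuron-like. The median number of globin UMIs was nearly the same in every kind. The median over cells without Alas2 was 13 and 15 globin UMIs in excitatory neuron-like cells, interneuron-like cells and radial glia-like cells, 13 and 14 in intermediate progenitor-like cells and 12 and 15 in endothelial-like cells. It was 13 and 16 in microglia-like cells, 12 and 14 in mural-like cells and 11 and 15 in fibroblast-like cells. Single excitatory neuron-like cells ran from 6 to 22 and from 7 to 24 between the 5th and 95th percentile. After thinning to 1000 UMIs per cell, a globin UMI was found in 80.4% and 83.0% of excitatory neuron-like cells, 88.7% and 92.9% of interneuron-like cells and 62.0% and 75.9% of fibroblast-like cells, whose median depths were 12828 and 11112 UMIs. Before thinning it was found in 98.9% to 100% of the cells of each kind. Thinning left out 37 and 30 excitatory neuron-like cells.

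Microglia engulf dying cells, and microglia-like cells (microglia or macrophage markers) were compared with excitatory neuron-like cells next, among cells without Alas2 (131 and 160 against 2880 and 2958 cells). The 4 later globins were all called higher in microglia-like cells, at 1196 and 2124 against 973 and 1083 CPM for Hbb-bs (log2 difference 0.77 ± 0.26, edgeR adjusted p = 0.0345). Hba-a1 (0.88 ± 0.26, 0.0194), Hbb-bt (0.81 ± 0.22, 0.0156) and Hba-a2 (0.81 ± 0.23, 0.0181) were alike. In this comparison 25.6% of 15451 genes were called higher. The median depth was 2943 and 1988.5 UMIs in microglia-like cells against 7577.5 and 7355 in excitatory neuron-like cells, and the number of globin UMIs per cell was nearly equal, as given above. In cells of 1500 to 60000 UMIs with under 10% mitochondrial UMIs, none of the 4 was called (log2 differences of 0.39 to 0.45, edgeR adjusted p of 0.127 to 0.177). Neither were they without the filter on low counts (0.206 to 0.279), and DESeq2 did not call Hbb-bs (0.0713).

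Heme and iron genes of microglia-like cells differed far more than the globins. All 4 heme breakdown genes were higher, Hmox1 at 345 and 166 CPM against 0.168 and 0.338 CPM. Hmox1 passed the filter on low counts through microglia-like cells alone, so no test is given for it. The other heme breakdown genes were called, among them the biliverdin reductases Blvrb (6.46 ± 0.17) and Blvra (3.33 ± 0.13). Of 11 transport genes 4 were higher, including Slc25a37 (3.67 ± 0.40) and Fth1 (2.48 ± 0.18), against 25.6% of all genes, and 1 was lower, against 26.6%. The gene called lower was Abcb10 (-1.13 ± 0.38, edgeR adjusted p = 0.0342, and 0.0506 with the library as a block). Of the heme synthesis enzymes Alas1 was higher (1.36 ± 0.20) and Uros lower (-1.07 ± 0.36, edgeR adjusted p = 0.0363, and 0.0679 with the block).

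Endothelial cells line the vessels that carry the red cells. In endothelial-like cells none of the 4 later globins was called (127 and 94 cells). Hbb-bs stood at 2342 and 744 CPM against 973 and 1083 CPM in excitatory neuron-like cells (0.52 ± 0.45, edgeR adjusted p = 0.356), and the other 3 gave adjusted p of 0.199 to 0.378. In the same test 55% of 15679 genes were called in either direction, and with the library as a block none of the 4 was called either. The cells of replicate 1 included 1 globin-rich cell. Without globin-rich cells the differences were -0.30, -0.18, -0.31 and -0.38 for Hbb-bs, Hbb-bt, Hba-a1 and Hba-a2. Tfrc, by contrast, was 4.05 ± 0.17 higher in endothelial-like cells, at 384 and 284 against 18.9 and 19.2 CPM (edgeR adjusted p = 7.92e-07), and Alas1 was 2.34 ± 0.21 higher.

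Alas2 in globin-poor cells did not follow the globins. Alas2 per 1000 globin UMIs was 1.31 and 1.01 in globin-rich cells, but 5.74 and 3.61 in globin-poor cells. Before thinning, 11.3% (10.2% to 12.4%) and 8.42% (7.49% to 9.44%) of globin-poor excitatory neuron-like cells had an Alas2 UMI, at 15.5 and 11.4 CPM. Interneuron-like cells followed with 7.27% and 6.73%, radial glia-like cells with 4.94% and 6.12%, and microglia-like cells with 1.504% and 3.05% (2 and 8 UMIs). These shares depend on depth, with median UMIs of 7539 and 7436 in excitatory neuron-like cells and 3119 and 2065 in microglia-like cells.

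After thinning to 2000 UMIs, Alas2 was found in 4.16% (3.48% to 4.93%) and 2.61% (2.07% to 3.24%) of excitatory neuron-like cells and in 3.36% (2.57% to 4.31%) and 3.33% (2.53% to 4.30%) of interneuron-like cells. In radial glia-like cells it was found in 1.20% (0.440% to 2.58%) and 1.26% (0.463% to 2.72%). The intervals of excitatory neuron-like cells and radial glia-like cells did not overlap in replicate 1 and overlapped in replicate 6. In microglia-like cells it was found in 0 of 83 and 0 of 85 cells, which allows a share of up to 3.61% and 3.53%, so a difference from the excitatory neuron-like cells was not detectable at this depth. Endothelial-like cells had 0 of 108 and 0 of 86, which allows up to 2.78% and 3.49%. Thinning left out 188 and 164 excitatory neuron-like cells and 65 and 46 radial glia-like cells.

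Apex2, on the other strand of the same stretch, was measured in the same cells. It stood at 102 and 115 CPM in globin-poor cells with Alas2 and at 65.5 and 70.0 CPM in those without. Per 1000000 non-globin UMIs it stood at 49.5 and 52.8 in globin-rich cells with Alas2 against 65.6 and 70.2 in globin-poor cells without and was not called (-0.18 ± 0.17, edgeR adjusted p = 0.744). Among the kinds of cells it stood at 76.3 and 80.4 CPM in excitatory neuron-like cells, 54.6 and 64.0 CPM in radial glia-like cells and 22.3 and 28.9 CPM in microglia-like cells. Alas2 stood at 15.5 and 11.4 CPM in excitatory neuron-like and 7.06 and 7.67 CPM in radial glia-like cells. In microglia-like cells it stood at 2.35 and 9.65 CPM. Intermediate progenitor-like cells had the highest Apex2 level, 79.8 and 85.5 CPM, but 8.79 and 5.10 CPM of Alas2. Whether introns or the opposite strand entered the counts is not given in the sources used here, and the part of Apex2 in the Alas2 counts was not tested.

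Globin-poor cells with and without Alas2 were then compared over all genes. None of 18669 genes was called (0%) in edgeR, although 2001 had an unadjusted p under 0.05. DESeq2 called 68 higher and 38 lower, and edgeR with the library as a block 637 higher and 877 lower. Apex2 differed by 0.65 ± 0.08 (edgeR adjusted p = 0.165, and 1.28e-08 with the block). The later globins differed by 0.28 to 0.46 and none was called, while with the block Hba-a1 (adjusted p = 0.0015) and Hba-a2 (0.00164) were. No gene of the 8 heme, red cell and regulator lists was called without the block.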

How the data were processed

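Droplet data of 2 libraries from wild-type embryonic day 16.5 brain hemispheres were used. The authors deposited unnormalised UMI counts, made with Cell Ranger 7.0.0 on mm10 per the labels. Use of introns and strand in counting is not given in the sources used here. No cell was removed and no doublets were taken out, since all called cells were wanted. Depth was 74930397 and 68964234 UMIs. The files held 0 other columns of samples.

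The 8 members and all gene lists were chosen with earlier results of these data known. Beside the members, the rule named the heme synthesis enzymes, up to 3 called genes of each other list by size of the log2 difference, and the 10 genes most like Alas2 across cells; some genes that met it are not reported here and were left out of the count of enzymes. Any other gene was named after its values were seen. A cell met a marker list with at least 1 UMI of 3 of its markers and 2 more markers than of any other list. UMIs were summed per library and class and tested with edgeR 4.0.16 (quasi-likelihood, TMM, filter on low counts, Benjamini-Hochberg over all genes, threshold 0.05), with DESeq2 1.42.0 as an alternative, in R 4.3.3. SE is the log2 difference divided by the root of F. The labels number the libraries without saying more of their origin, so p-values measure only the spread between 2 libraries, which may be technical. Each library gave both classes, whose deviations from the class means correlated within libraries by 0.40 (Alas2), 0.12 (microglia-like), 0.13 (endothelial-like), 0.12 (3 or more Alas2 UMIs) and 0.39 (globin-poor). Hence a fit with the library as a block was an alternative, as were other cell filters, scalings and leaving out a library. Shares have exact binomial intervals (95%), for counting error only, and a count of 0 allows 3 counts. Cells were thinned to 1000 UMIs (globins) or 2000 UMIs (Alas2). The fits were tested on simulated data. Other steps used Python 3.11.15, numpy 2.4.6, scipy 1.17.1 and pandas 2.3.3.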

Additional observations from a re-analysis of the deposited data

How the results depend on the processing

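With 2 libraries, a call rests on few degrees of freedom, and counts of calls moved with most settings. Some settings were added after seeing the data (globin-rich classes, their scalings, and those for globin-rich and globin-poor cells split by Alas2). Depth limits Alas2 in rare kinds of cells and embryonic globins outside the 8 cells. The causes of the changes listed here were not tested.

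For cells with against without Alas2, 32 genes were called. The count was 80 with 1500 to 60000 UMIs and under 10% mitochondrial UMIs, 109 with at least 2 Alas2 UMIs, 268 with at least 3 erythroid markers and 1467 without cells of 3 neural markers. It was 255 between globin-rich and globin-poor cells, 1502 for these without neural markers, 149 with DESeq2, 100 without the low-count filter and 1374 with the library as a replicate block (pairing). Without TMM it was 41, with 26 higher and 15 lower. For globin-rich against globin-poor cells (255) it was 13049 without TMM, 440 with the block and 340 (188 higher, 152 lower) scaled to non-globin UMIs. For 3 or more against no Alas2 UMI (2) it was 129 without neural markers, 32 with DESeq2, 114 without TMM, 280 without the filter and 15 with the block. For globin-poor cells (0) it was 106 with DESeq2, 4 without the filter and 1514 with the block.

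Directions turned mostly for genes that were not called. The globin-rich cells with Alas2 held only 1 and 3 UMIs of Hbb-y and 2 and 0 of Hba-x. With against without Alas2, Hbb-y gave 1.68 with erythroid markers, and 4.91 and, without neural markers, 6.34 in globin-rich cells, where Hba-x gave 2.65 and 4.08. In the same order Alas1 gave 0.49, 0.74 and 1.17, and 0.60 without neural markers. Uros gave 0.066, 0.44 and 0.41, and 0.013 with 2 Alas2 UMIs. Ppox gave 3.22, 1.23 and 1.74, then 0.052 with the cell filter, 0.55 with 2 Alas2 UMIs and 0.37 without neural markers. Alad gave -0.15 without TMM and -0.026 without the filter. Without replicate 1 and 6 in turn, Alas1 gave 0.024 and -0.082, Alad -0.010 and 0.046, and Ppox -0.13 and 0.11. Globin-rich against globin-poor, without TMM, Alas1 gave -1.10, Alad -0.83, Uros -1.40 and Ppox -0.61, and without replicate 1 and 6 Hba-x gave -3.47 and 3.02 and Uros 0.90 and -0.35. For endothelial-like cells, Hbb-bs, Hbb-bt, Hba-a1 and Hba-a2 gave -0.30, -0.18, -0.31 and -0.38 without globin-rich cells and -0.66, -0.41, -0.57 and -0.88 without replicate 1, but 1.24, 0.89, 1.61 and 1.49 without replicate 6. In globin-poor cells Hbb-bt gave 0.57 without replicate 1 and -0.16 without replicate 6.

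The pooled embryonic share in cells with Alas2 was 0.00174% of beta-type UMIs (0.00125% to 0.00223% leaving out a library). It was 0.0314% in globin-rich cells whatever Alas2, 0.0133% as a mean over cells and 0.00102% minus the free level. For alpha-type UMIs it was 0.000864% (0% to 0.00173%), 0.0426% and 0.0352%. Globin UMIs per cell without Alas2 were 23.3 (20.1 to 26.4), 15.1 without globin-rich cells and 14 as a median. The share of thinned cells with a globin UMI was 87.3% (86.6% to 88.0%), 83.1% with the cell filter and 94.6% at 2000 UMIs.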
